A study of Homo sapiens with 18 samples.

Results

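The human genome carries many of its zinc finger genes of the ZNF series in dense clusters on chromosome 19, and 149 genes of that chromosome were followed here in breast epithelial cells. A gene was included when its symbol starts with ZNF and a digit, when the deposited count table lists it as protein-coding on chromosome 19, and when its count averaged at least 50 over 18 libraries. The 149 genes were taken from 247 protein-coding ZNF genes of chromosome 19 at any count and from 60662 genes in the table. The members were thus chosen by their mean count in these libraries, so their abundance is a description and not a result. Just inside the limit lay ZNF569, ZNF773 and ZNF136 with mean counts of 50.44, 52.94 and 53.89, and just outside it lay ZNF559-ZNF177, ZNF837 and ZNF345 with 48.00, 47.33 and 46.78. Mean counts of the included genes ran from 50.44 for ZNF569 to 3587 for ZNF544, with a median of 160.9. All 149 also passed the filter on low counts that preceded the tests, so none was lost there.

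The RNA came from MCF10A, an immortalised, non-malignant human breast epithelial line, grown on compliant polyacrylamide gels coated with 50 µg/ml Matrigel, a laminin-rich basement membrane extract. In 3D culture the cells received medium with 2% Matrigel, and in 2D culture they received fresh medium without it. Each culture was sampled at timepoints 1, 2 and 3, which gives 6 groups of 3 libraries, numbered 1 to 3 in each group. The protocol lists harvests at 3, 12 and 21 h, matched to the timepoints by order alone. MCF10A is a single cell line, and the labels do not say whether libraries of a group came from separate cultures, so p-values measure the spread between these libraries, which may be technical. All libraries of 1 number carry the same date, which pairs them across groups. Library number 1 of 2D timepoint 3 was left out of every test because its labels list the raw count table alone, so 2D timepoint 3 rests on 2 libraries. Its values stand beside the results they touch.

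Most ZNF proteins of chromosome 19 join a row of C2H2 zinc fingers, which read DNA, to a KRAB domain, which recruits the corepressor TRIM28 and, through it, the histone methyltransferase SETDB1. Many of these proteins silence transposable elements, each binding its own elements, and the genes arose by repeated local duplication. Neighbours in a cluster are therefore close relatives. The reads were 50 bases long and single-end, and the labels do not say how reads that fit several relatives were counted, so a value for a gene with near-identical neighbours, such as ZNF611, ZNF468, ZNF600 and ZNF888, is uncertain in that respect.

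Promoters of 136 of the 149 genes could be matched in RefSeq, as the stretch around the annotated start on GRCh38.p14. The letters CCGGAAG, the core bound by ETS-family factors, were searched on both strands together with 4 other motifs. CCGGAAG was present in 65 of the 136 promoters (47.8%), against 38.3% of 167 promoters of ZNF genes on other chromosomes that met the same minimum count, 17.9% of the promoters of 12232 tested genes and 10.3% of all 35116 promoters in the table. Of its 74 matches in the chromosome 19 genes, 56 (75.7%) lay within 50 bases of the start, against 1512 of 2697 matches (56.1%) in tested genes, and the median position was -14.5, against -42 in tested genes. The YY1-type letters AAGATGG were in 11.0% of the members' promoters and 7.11% of those of tested genes. The letters TGACGTC were in 5.15% of the members' promoters and 5.36% of those of tested genes, GCATGCG in 3.68% of the members' and 6.13% of those of tested genes, and GGGCGGG in 49.3% of the members' and 51.7% of those of tested genes. A match is a run of letters and does not show that a factor binds there. The promoters of 4 members are printed 5′ to 3′ on the strand of the gene. They belong to the 3 members that were lower, and the 1 that was higher, at 3D timepoint 3 than at timepoint 1 under each of 32 alternative settings. Capitals mark CCGGAAG or its reverse complement CTTCCGG, and ZNF576 has neither. The regions are chr19:52734995-52735294 (minus strand) for ZNF611, chr19:53103373-53103672 (minus) for ZNF160, chr19:57191250-57191549 (plus) for ZNF264 and chr19:43596142-43596441 (plus) for ZNF576.
ZNF611: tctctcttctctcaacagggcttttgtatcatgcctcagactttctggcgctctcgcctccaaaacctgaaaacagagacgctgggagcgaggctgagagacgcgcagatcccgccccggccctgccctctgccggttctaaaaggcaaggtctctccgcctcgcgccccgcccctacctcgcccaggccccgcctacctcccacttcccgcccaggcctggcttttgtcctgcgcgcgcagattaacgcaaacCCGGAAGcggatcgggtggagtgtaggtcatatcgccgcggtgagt
ZNF160: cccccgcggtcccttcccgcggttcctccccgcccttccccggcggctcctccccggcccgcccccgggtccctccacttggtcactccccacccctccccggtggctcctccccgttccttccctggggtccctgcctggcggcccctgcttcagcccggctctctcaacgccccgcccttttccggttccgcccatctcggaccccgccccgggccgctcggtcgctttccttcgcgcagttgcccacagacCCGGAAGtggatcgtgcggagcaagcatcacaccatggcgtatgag
ZNF264: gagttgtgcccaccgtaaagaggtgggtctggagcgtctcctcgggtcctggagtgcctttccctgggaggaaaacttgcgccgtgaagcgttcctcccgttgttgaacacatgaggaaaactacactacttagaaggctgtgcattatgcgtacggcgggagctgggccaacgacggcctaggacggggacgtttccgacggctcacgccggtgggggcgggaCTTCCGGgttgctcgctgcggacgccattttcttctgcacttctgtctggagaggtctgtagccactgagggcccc
ZNF576: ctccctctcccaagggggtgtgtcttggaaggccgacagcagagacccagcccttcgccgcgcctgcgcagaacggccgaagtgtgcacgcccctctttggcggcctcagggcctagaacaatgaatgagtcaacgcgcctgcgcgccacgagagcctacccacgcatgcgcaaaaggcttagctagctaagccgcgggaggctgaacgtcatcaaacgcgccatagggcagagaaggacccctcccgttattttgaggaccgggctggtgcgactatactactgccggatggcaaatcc
The match is centred 7 bases after the start in both ZNF611 and ZNF160 and 23 bases before the start in ZNF264. GC content of these promoters was 63.0%, 72.7%, 60.7% and 62.0%, in the order printed. The start given in the count table lies 5.2 kb from the RefSeq start for ZNF611 and 27.5 kb from it for ZNF160, 0.2 kb for ZNF576 and 0 kb for ZNF264.

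The deposited counts summed to 49.8M to 93.9M per library, which is 4.73 to 5.73 times the library totals in the file headers (9.31M to 17.75M). What the header totals count is not stated, so the sums are not taken as depth, levels are not compared between genes, and intervals for counting error are left out. Levels below are normalised CPM, the counts scaled to a common library sum by TMM. The basal epithelial markers KRT5, KRT14, KRT17, TP63, CDH1, LAMB3 and ITGB4 had at least 1288 counts in every library. ESR1 had 3 to 47 counts and PGR 0 in all 18 libraries. COL1A2 was at 0 in 16 libraries, PTPRC in 16, ADIPOQ in 16 and HBB in 17, while CD14 had 397 to 1486 counts, COL1A1 115 to 511 and PECAM1 28 to 135. Of the 149 members, 71 overlap another gene by the table's coordinates, and 16 overlap one with a mean count of at least 50, ZNF576 and ZNF575 among them. The labels do not state a strand for the counting, so reads of overlapping genes cannot be told apart. In bulk RNA, fewer cells that express a gene and less RNA per cell cannot be told apart either.

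By the mean of each group of libraries, the 149 genes together stood highest at timepoint 1 in both cultures. The median over the genes of log2 CPM minus each gene's own mean was 0.139, 0.194 and 0.053 in the 3 libraries of 3D timepoint 1, and 0.166, 0.261 and 0.035 in those of 2D timepoint 1. At timepoint 2 it was -0.083, -0.177 and -0.125 in 3D libraries, against 0.029, -0.074 and 0.075 in 2D libraries. In 2D number 3 the timepoint 2 library thus lay above that of timepoint 1, by 0.04. No other tested library lay below the 3 libraries of 3D timepoint 2, and 2D timepoint 3 number 3, at -0.083, equalled the highest of them. At timepoint 3 it was -0.013, -0.076 and -0.068 in 3D libraries, against -0.046 and -0.083 in 2D libraries and 0.042 in the library left out. The members took 0.0573% to 0.0584% of all counts in 3D timepoint 2 libraries and 0.0633% to 0.0904% in the others.

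**Figure D1:**
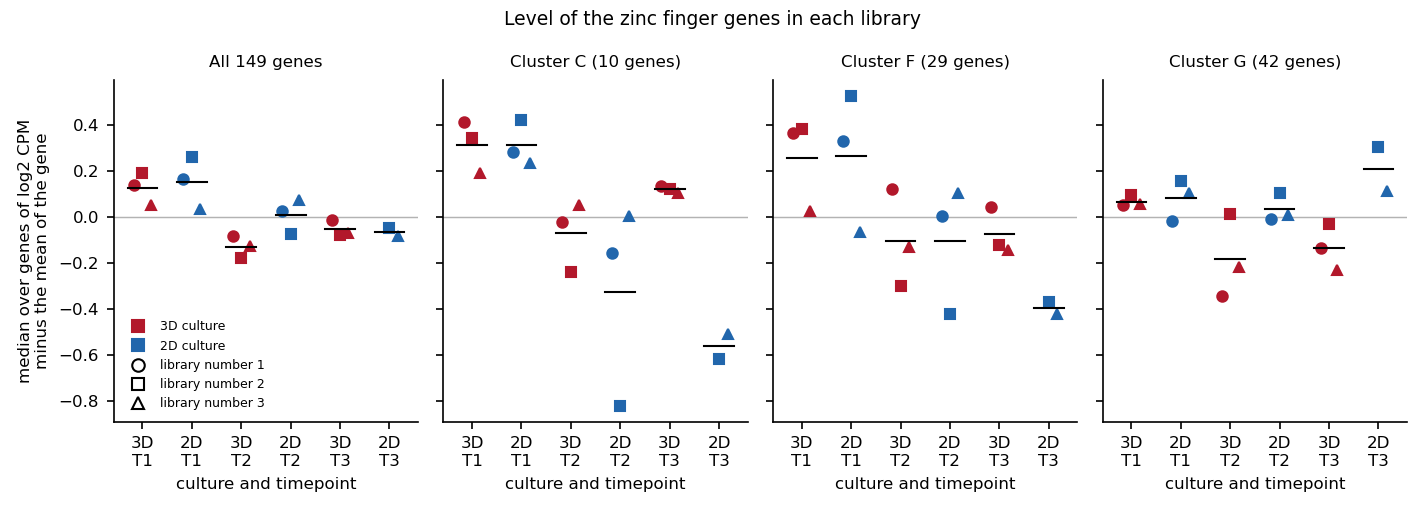
Median over genes of log2 CPM minus the gene's own mean (y axis) in each of the 17 tested libraries, by culture and timepoint (x axis), for all 149 genes and for 3 clusters of chromosome 19 described further on. Points are libraries, marker shape gives the library number, and black lines are group means; over all 149 genes the 3D timepoint 2 libraries lie between -0.177 and -0.083.

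In 3D culture, most zinc finger genes of chromosome 19 that passed the test at timepoint 2 were lower than at timepoint 1. By edgeR's quasi-likelihood test (Benjamini-Hochberg adjusted p under 0.05 over 18592 genes), 16 of the 149 (10.7%) were lower at timepoint 2, where 7.76% of all tested genes were, and 3 (2.01%) were higher, where 7.31% of all tested genes were. The median log2 fold change was -0.28 over the members, with 108 of 149 below 0, against 0.01 over all tested genes, -0.12 over 198 ZNF genes of other chromosomes and 0.07 over 689 other protein-coding genes of chromosome 19. Over all alternative settings the members' median stayed between -0.41 and -0.19. With a term for the library number, 29 members (19.5%) were lower, where 13.6% of tested genes were, and 6 (4.03%) were higher, where 14.8% were. The members' median difference within a library number was -0.222 for number 1, -0.371 for number 2 and -0.178 for number 3.

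ZNF266, a KRAB zinc finger gene in the cluster near 9 Mb, had 6.73, 8.55 and 7.52 CPM in 3D timepoint 2 libraries, against 18.2, 16.3 and 11.9 CPM in 3D timepoint 1 libraries. Every timepoint 2 value lay below every timepoint 1 value. The log2 fold change was -1.03 ± 0.20 (SE), with an adjusted p of 0.00338, and the call held under all 32 alternatives. ZNF264 had 3.27, 4.70 and 4.88 CPM at timepoint 2, against 6.64, 10.4 and 7.70 CPM at timepoint 1, again without overlap. Its log2 fold change was -0.95 ± 0.23 (adjusted p = 0.0114). Leaving out 3D timepoint 1 number 2 or 3D timepoint 2 number 1 ended that call, with adjusted p-values up to 0.0698. ZNF558, known as a repressor of the mitophagy gene SPATA18, had 1.44, 1.5 and 1.37 CPM at timepoint 2, against 2.96, 2.62 and 2.29 CPM at timepoint 1. Its log2 fold change was -0.87 ± 0.21 (adjusted p = 0.0123), and leaving out 3D timepoint 1 number 1 ended the call at 0.0527.

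ZNF160, which represses TLR4 in intestinal epithelial cells, had 6.11, 5.64 and 5.02 CPM in 3D timepoint 2 libraries, against 8.39, 11.2 and 9.37 CPM in 3D timepoint 1 libraries. Its neighbour ZNF611 had 4.0, 4.29 and 3.58 CPM at timepoint 2, against 7.50, 8.73 and 4.49 CPM at timepoint 1. For both genes all timepoint 2 values were the lower ones, though ZNF611 in library number 3 of timepoint 1 came close to them. The log2 fold changes were -0.79 ± 0.21 for ZNF160 (adjusted p = 0.0212) and -0.80 ± 0.22 for ZNF611 (adjusted p = 0.0243). ZNF155 had 0.712, 1.09 and 0.727 CPM at timepoint 2, against 1.59, 1.70 and 1.75 CPM at timepoint 1 (log2 fold change -1.0 ± 0.25, adjusted p = 0.016). ZNF430 averaged 1.14 ± 0.144 CPM at timepoint 2 and 2.25 ± 0.530 CPM at timepoint 1 (SD, n = 3 each; adjusted p = 0.0298). ZNF317 averaged 17.1 ± 1.86 CPM at timepoint 2 and 25.5 ± 4.71 CPM at timepoint 1 (adjusted p = 0.0296). These 5 calls each ended when 1 of 2 to 4 libraries was left out, 3D timepoint 1 number 2 being among them in all 5. The other 8 lower members were ZNF468, ZNF548, ZNF550, ZNF175, ZNF432, ZNF419, ZNF426 and ZNF121, with log2 fold changes from -0.96 (ZNF432) to -0.63 (ZNF419) and adjusted p-values from 0.0336 (ZNF468) to 0.0448 (ZNF121). Each of these calls ended when 1 of 3 (ZNF550) to 10 (ZNF426) libraries was left out. The 3 members that rose were ZNF576, ZNF575 and ZNF527. ZNF576 had 18.4, 18.9 and 21.3 CPM in 3D timepoint 2 libraries, against 9.85, 10.8 and 11.1 CPM in 3D timepoint 1 libraries. The groups did not overlap, and the log2 fold change of 0.89 ± 0.18 (adjusted p = 0.00442) held under all 32 alternatives. ZNF576 overlaps SRRM5 in the table's coordinates. ZNF575 averaged 5.01 ± 0.998 CPM at timepoint 2 and 2.68 ± 0.845 CPM at timepoint 1 (SD, n = 3 each; log2 fold change 0.90 ± 0.28, adjusted p = 0.0398), its call ended in 8 of 17 fits that left out 1 library, and it overlaps ETHE1. ZNF527 had 1.70, 0.878 and 1.66 CPM at timepoint 2, against 0.580, 0.838 and 0.907 CPM at timepoint 1 (adjusted p = 0.0451). Its groups overlapped, and it was called under 11 of 32 alternatives.

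**Figure D2:**
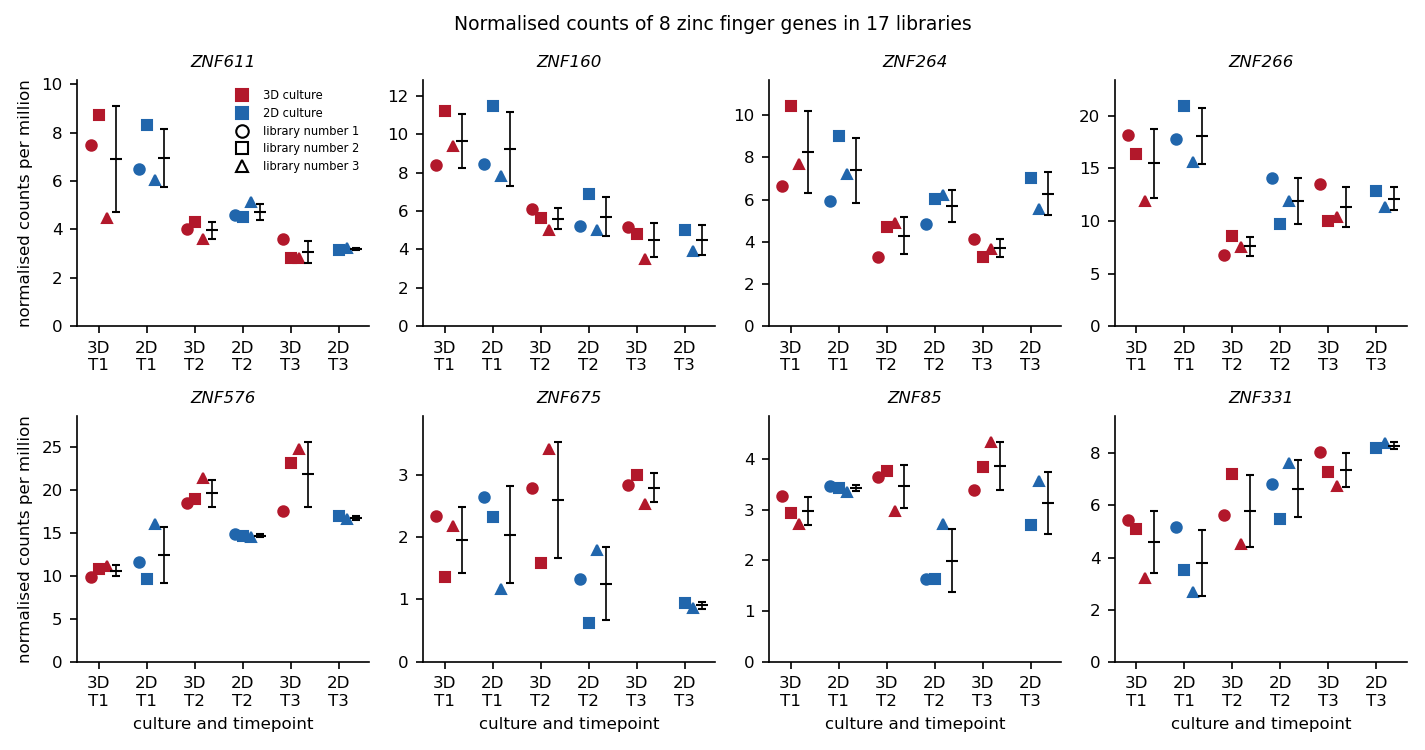
Normalised CPM (y axis, from 0) of 8 zinc finger genes in 17 libraries by culture and timepoint (x axis). Points are libraries, marker shape gives the library number, and the bar beside each group is mean and SD; within each culture the group means of ZNF611, ZNF160, ZNF264 and ZNF266 are highest at timepoint 1, those of ZNF576 are highest in 3D at timepoints 2 and 3, and that of ZNF675 is lowest in 2D timepoint 3.

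Library composition moved with this comparison. The ratio of summed counts to the header total was 5.54 to 5.73 in 3D timepoint 2 libraries, against 4.88, 4.89 and 5.53 in 3D timepoint 1 libraries. Mitochondrial RNA made up 0.364% to 0.482% of counts in 3D timepoint 2 libraries, against 1.21%, 0.976% and 0.541% in 3D timepoint 1 libraries. Library number 3 of timepoint 1 thus lay nearest to timepoint 2 in both measures, and within that number the members' median difference was -0.178. With 3D timepoint 1 number 1 or number 2 left out, 8 or 4 members were called in place of 19. With 3D timepoint 2 number 1 or number 3 left out, 9 or 6 were called. These totals count every member called, so they can include members outside the 19, and fewer of the 19 may have held. Longer members had the more negative fold changes, with a rank correlation of -0.33 between transcript length and log2 fold change over the 149 genes, which share all libraries, and -0.25 over all tested genes. With the library number as a term and offsets for transcript length and GC content, 29 members were lower and 10 higher, and the median was -0.19. The share of all tested genes called in that fit is not given, so its counts are not read as a result about the members. The part of library composition in these calls was not tested further.

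At 3D timepoint 3, which is set against the same timepoint 1 libraries, most members were again below their timepoint 1 level. Of the members, 9 (6.04%) were lower than at timepoint 1, where 6.95% of tested genes were, and 3 (2.01%) were higher, where 4.07% were. Adding the library number as a term gave 16 lower, where 12.5% of tested genes were, and 5 higher, where 11.4% were. Without that term the share of lower members was near that of all genes. The median log2 fold change was -0.20, with 103 of 149 below 0, and lay between -0.26 and -0.15 over the alternatives.

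ZNF611 had 3.59, 2.80 and 2.80 CPM in 3D timepoint 3 libraries, against 7.50, 8.73 and 4.49 CPM in 3D timepoint 1 libraries (log2 fold change -1.17 ± 0.22, adjusted p = 0.00284). ZNF160 had 5.17, 4.81 and 3.48 CPM at timepoint 3, against 8.39, 11.2 and 9.37 CPM at timepoint 1 (-1.10 ± 0.21, adjusted p = 0.003). ZNF264 had 4.13, 3.26 and 3.68 CPM at timepoint 3, against 6.64, 10.4 and 7.70 CPM at timepoint 1 (-1.16 ± 0.23, adjusted p = 0.00331). In all 3 genes the timepoints did not overlap, and all 3 calls held under 32 of 32 alternatives. ZNF576 had the smallest p of the 3 higher members, with 17.5, 23.1 and 24.8 CPM at timepoint 3, against 9.85, 10.8 and 11.1 CPM at timepoint 1 (1.04 ± 0.18, adjusted p = 0.00137), and it too was called under 32 of 32 alternatives. ZNF155 (-0.98 ± 0.25, adjusted p = 0.0197), ZNF490 (-1.02 ± 0.27, adjusted p = 0.0226) and ZNF550 (-0.75 ± 0.22, adjusted p = 0.0396) were lower as well.

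ZNF350, also called ZBRK1 and known as a DNA-binding partner of BRCA1, had 0.947, 1.13 and 1.07 CPM at 3D timepoint 3, against 1.85, 2.53 and 1.57 CPM at 3D timepoint 1 (-0.92 ± 0.26, adjusted p = 0.0304). ZNF568, whose mouse counterpart controls a placental Igf2 transcript, had 0.265, 0.599 and 0.529 CPM at timepoint 3, against 1.01, 1.19 and 1.16 CPM at timepoint 1 (-1.27 ± 0.36, adjusted p = 0.0321). Neither gene's groups overlapped. ZNF701 completed the lower members. ZNF584 (0.59 ± 0.17, adjusted p = 0.0306) and ZNF30 (1.17 ± 0.35, adjusted p = 0.0414) rose. Calls for ZNF155, ZNF490, ZNF550, ZNF350, ZNF568, ZNF701, ZNF584 and ZNF30 each ended when 1 of 3 to 12 libraries was left out. With 3D timepoint 1 number 2 or 3D timepoint 3 number 3 left out, 4 members were called in place of 12. With 3D timepoint 3 number 1 or number 2 left out, 7 were called. These totals too can include members outside the 12. Between 3D timepoints 3 and 2, 0 members were called, as were 0.0% of tested genes with and without the library number as a term. At an unadjusted p under 0.05, 6 members were higher and 1 was lower, and DESeq2 called 0. ZNF568 and ZNF266 had the smallest p-values there, with log2 fold changes of -1.04 ± 0.36 and 0.58 ± 0.20 that did not pass. Counts at an unadjusted p and by DESeq2, here and below, have no share of all tested genes beside them. They are therefore not read as results about the members.

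In 2D culture the members lower than at timepoint 1 included ZNF530 and ZNF85 at timepoint 2 and ZNF611 and ZNF160 at timepoint 3. At timepoint 2 against timepoint 1, 2 members (1.34%) were lower, where 3.22% of tested genes were, and 0 were higher, where 2.66% of tested genes were. At an unadjusted p under 0.05 there were 15 lower and 4 higher, and DESeq2 called 6 lower and 2 higher. When the library number was a term, 6 were lower, where 7.06% of tested genes were, and 2 were higher, where 6.59% were. The 6 were ZNF160, ZNF266, ZNF468, ZNF530, ZNF85 and ZNF888, and the 2 were ZNF331 and ZNF790. ZNF530 had 0.682, 0.724 and 1.06 CPM in 2D timepoint 2 libraries, against 1.96, 2.26 and 1.86 CPM in 2D timepoint 1 libraries, with no overlap (log2 fold change -1.30 ± 0.27, adjusted p = 0.00888). Leaving out 2D timepoint 2 number 1 or number 2 raised its adjusted p to between 0.0505 and 0.0551. ZNF85 had 1.64, 1.63 and 2.71 CPM at timepoint 2, against 3.47, 3.44 and 3.35 CPM at timepoint 1 (-0.78 ± 0.22, adjusted p = 0.0461). That call ended in 15 of the 17 fits that left out 1 library, with adjusted p-values up to 0.189.

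At 2D timepoint 3 against timepoint 1, 5 members (3.36%) were lower, where 2.36% of tested genes were, and 1 (0.671%) was higher, where 2.5% of tested genes were. With the library number as a term, 10 members were lower, where 5.13% of tested genes were, and 3 were higher, where 5.38% were. ZNF611 had 3.15 and 3.23 CPM in 2D timepoint 3 libraries, against 6.49, 8.30 and 6.03 CPM in 2D timepoint 1 libraries (-1.12 ± 0.26, adjusted p = 0.0193). ZNF160 had 5.02 and 3.91 CPM at timepoint 3, against 8.45, 11.4 and 7.82 CPM at timepoint 1 (-1.05 ± 0.24, adjusted p = 0.0204). ZNF468 had 2.13 and 1.43 CPM at timepoint 3, against 4.14, 5.10 and 3.68 CPM at timepoint 1 (-1.28 ± 0.30, adjusted p = 0.0204). These 3 genes lie together in the cluster at 51.6 to 53.6 Mb, as does ZNF761, with 1.58 and 1.31 CPM at timepoint 3, against 2.91, 3.59 and 2.78 CPM at timepoint 1 (-1.10 ± 0.26, adjusted p = 0.0209). ZNF100, in a cluster nearer the centromere, had 0.423 and 0.454 CPM at timepoint 3, against 1.63, 2.34 and 0.993 CPM at timepoint 1 (-1.91 ± 0.41, adjusted p = 0.0139). The left-out library of 2D timepoint 3 held 5.61 CPM for ZNF611, 5.44 for ZNF160, 3.06 for ZNF468, 2.45 for ZNF761 and 1.74 for ZNF100, in each case above both tested libraries of its group, and for ZNF100 inside the range of timepoint 1. With all 18 libraries, 3 members were called in this comparison in place of 6.

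ZNF331, an imprinted gene of the same cluster, rose to 8.19 and 8.39 CPM in 2D timepoint 3 libraries, against 5.17, 3.50 and 2.68 CPM in 2D timepoint 1 libraries (1.13 ± 0.28, adjusted p = 0.0285), and the left-out library held 8.38 CPM. In 3D the same gene had 8.03, 7.27 and 6.73 CPM at timepoint 3, against 5.43, 5.09 and 3.22 CPM at timepoint 1, which passed with the library number as a term alone (0.70, adjusted p = 0.0336; 0.68 ± 0.26, adjusted p = 0.102 without it). Leaving out 2D timepoint 3 number 2 or number 3 ended all 6 calls of the 2D timepoint 3 comparison, and leaving out 2D timepoint 1 number 2 left 1, ZNF100. With either 2D timepoint 3 library left out the group is 1 library, which is assumed to vary like the other groups. Between 2D timepoints 3 and 2, 0 members were called, where 0.0% of tested genes were; with the library number as a term 0.0269% of tested genes were higher and 0.0108% lower, and again 0 members. At an unadjusted p under 0.05, 7 members were higher and 11 lower, and DESeq2 called 0.

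The changes over time in 3D and 2D use separate libraries, but libraries of 1 number share a date, and the deviations of the 3D and 2D timepoint 1 libraries from their group means correlated by 0.36, 0.41 and 0.51 in numbers 1, 2 and 3. The 2 baselines are therefore not independent. Of the 9 members lower at 3D timepoint 3 and the 5 lower at 2D timepoint 3, ZNF160 and ZNF611 were shared, which is 22.2% of the 3D list and 40% of the 2D list, where 352 genes were shared over all tested genes, 27.2% of the 3D list and 80.4% of the 2D list. At timepoint 2, 0 of the 16 members lower in 3D were among the 2 lower in 2D, where 464 genes were shared over all tested genes, 32.2% of the 3D list and 77.6% of the 2D list. With the library number as a term, 5 were shared at timepoint 2 (ZNF160, ZNF266, ZNF468, ZNF530 and ZNF888), which is 17.2% of 29 and 83.3% of 6, where all tested genes gave 36.5% of the 3D list and 70.4% of the 2D list. Over all 149 genes the log2 fold changes of timepoint 2 against timepoint 1 in 3D and in 2D had a rank correlation of 0.51 (Pearson 0.53), and 102 had the same sign, 77 of them below 0. For timepoint 3 against timepoint 1 the rank correlation was 0.50 (Pearson 0.46), and 103 had the same sign, 79 of them below 0. These are descriptions over genes that share library composition and sequence content within each culture, and the part of the shared dates in the correlations was not tested.

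**Figure D3:**
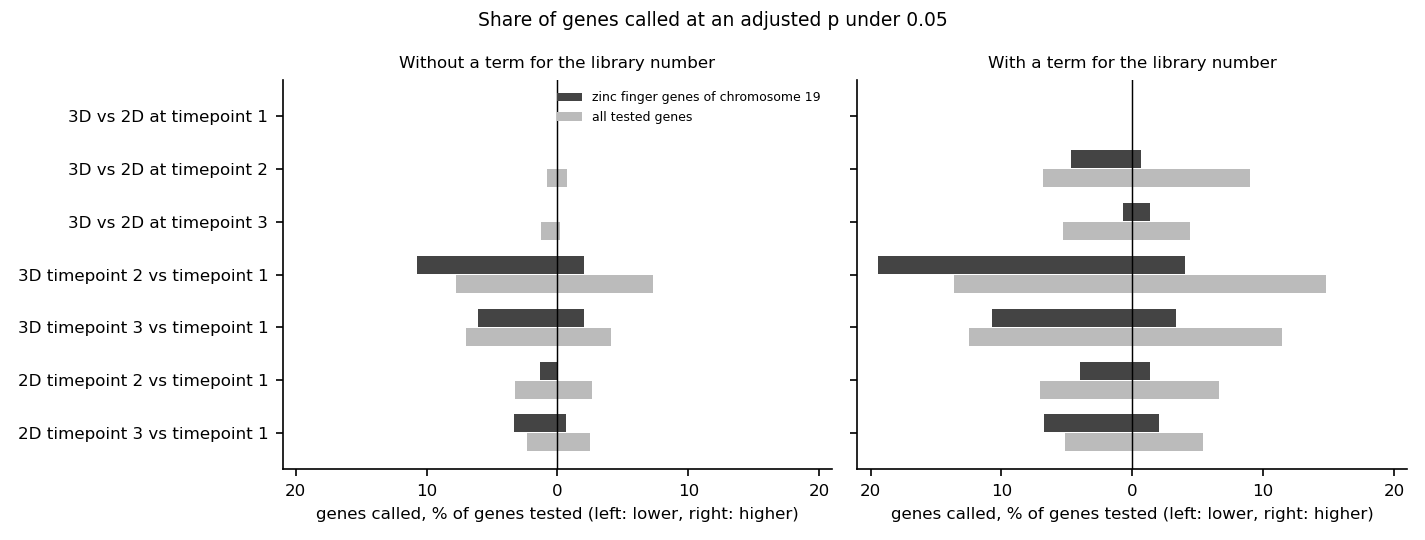
Genes called at an adjusted p under 0.05 by edgeR, as a percentage of genes tested (x axis; lower to the left, higher to the right), in 7 comparisons (y axis), for the 149 zinc finger genes (dark) and all 18592 tested genes (light), without and with a term for the library number. At 3D timepoint 2 against timepoint 1 the dark bars reach 10.7% lower and 2.01% higher without the term.

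Between 3D and 2D culture at the same timepoint, 0 members passed without the library number as a term. At timepoint 1, 0.0% of tested genes passed with or without that term, 1 member was higher and 1 lower at an unadjusted p under 0.05, and DESeq2 called 0. The lowest p-values at timepoint 1 among members whose groups did not overlap belonged to ZNF790, ZNF527, ZNF548, ZNF567 and ZNF85. None of these passed. ZNF527 had 0.580, 0.838 and 0.907 CPM in 3D timepoint 1 libraries, against 1.21, 1.21 and 1.16 CPM in 2D timepoint 1 libraries. ZNF548 had 5.10, 6.56 and 4.47 CPM in 3D and 4.08, 3.82 and 4.36 CPM in 2D.

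At timepoint 2, 0.705% of tested genes were higher in 3D than in 2D and 0.785% were lower, and with the library number as a term 9.0% were higher and 6.86% lower. Among the members, that term gave 7 lower (4.70%) and 1 higher (0.671%). At an unadjusted p under 0.05 there were 16 lower and 4 higher without the term, and DESeq2 called 6 lower and 1 higher. The median log2 fold change was -0.13, with 99 of 149 below 0, against -0.03 over all tested genes and -0.20 over ZNF genes of other chromosomes. It lay between -0.33 and -0.04 over the alternatives, and scaling by the header totals, which gave the lowest of these, moved the median of all tested genes to -0.23. Within the library numbers the members' median difference was -0.112 for number 1, -0.103 for number 2 and -0.2 for number 3. Library composition moved with this comparison too. Mitochondrial RNA made up 0.364% to 0.482% of counts in 3D timepoint 2 libraries, against 0.908% to 1.18% in 2D timepoint 2 libraries, and the ratio of summed counts to the header total was 5.54 to 5.73 in 3D, against 4.96 to 5.26 in 2D. Its part in the difference was not tested.

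ZNF419, which encodes a minor histocompatibility antigen, had 3.89, 3.51 and 3.90 CPM in 3D timepoint 2 libraries, against 5.61, 6.32 and 7.14 CPM in 2D timepoint 2 libraries. The groups did not overlap, and the log2 fold change of -0.75 ± 0.19 missed the threshold without the library number (adjusted p = 0.0598) and passed with it (-0.75, adjusted p = 0.0143). ZNF587, a repressor of endogenous retroviruses, had 3.30, 4.55 and 3.96 CPM in 3D, against 5.40, 6.73 and 6.31 CPM in 2D (-0.64 ± 0.20, adjusted p = 0.098, and 0.0111 with the library number). ZNF85 went the other way, with 3.64, 3.77 and 2.97 CPM in 3D, against 1.64, 1.63 and 2.71 CPM in 2D (0.80 ± 0.22, adjusted p = 0.0705, and 0.0178 with the library number). ZNF155, ZNF266, ZNF558, ZNF772 and ZNF8 were lower with the library number as a term, with adjusted p-values of 0.0197, 0.0255, 0.0368, 0.0257 and 0.0263. None of these 5 passed without it (adjusted p from 0.0891 to 0.166). ZNF266 had 6.73, 8.55 and 7.52 CPM in 3D, against 14.0, 9.74 and 11.9 CPM in 2D. In the authors' deposited table for this timepoint, 1 member passed an adjusted p of 0.05, ZNF419, with a log2 fold change of -0.78 (adjusted p = 0.0456), and their tables for timepoints 1 and 3 called 0 members.

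At timepoint 3, 0.231% of tested genes were higher in 3D than in 2D and 1.26% lower, and 4.45% were higher and 5.3% lower with the library number as a term. Among the members, 12 were higher and 13 lower at an unadjusted p under 0.05, DESeq2 called 3 higher and 2 lower, and the library number as a term gave 2 higher (ZNF675 and ZNF761, 1.34%) and 1 lower (ZNF574, 0.671%). The median log2 fold change was 0.01. ZNF675, also called TIZ and known as an inhibitor of TRAF6 signalling, had 2.84, 3.00 and 2.54 CPM in 3D timepoint 3 libraries, against 0.943 and 0.868 CPM in 2D timepoint 3 libraries, and 2.21 CPM in the left-out 2D library. Its log2 fold change was 1.62 ± 0.45 (adjusted p = 0.0865, and 0.0381 with the library number). ZNF574 had 13.9, 15.8 and 14.0 CPM in 3D, against 23.2 and 19.6 CPM in 2D, and 14.1 CPM in the left-out library (-0.56 ± 0.16, adjusted p = 0.0895, and 0.0255 with the library number). ZNF761 had 2.92, 2.35 and 2.68 CPM in 3D, against 1.58 and 1.31 CPM in 2D, and 2.45 CPM in the left-out library (0.88 ± 0.26, adjusted p = 0.101, and 0.0474 with the library number). For ZNF574 and ZNF761 the left-out 2D library lay inside the range of the 3D libraries, and for ZNF675 it lay nearer to them than to its own group. With all 18 libraries and the library number as a term, 1 member was called at this timepoint.

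Further members without overlap at timepoint 3 were ZNF274, which binds the 3′ ends of ZNF genes and recruits SETDB1 there, with 9.34, 11.1 and 9.20 CPM in 3D, against 12.8 and 14.7 CPM in 2D and 9.51 CPM in the left-out library (-0.47 ± 0.17, adjusted p = 0.158), and ZNF264, with 4.13, 3.26 and 3.68 CPM in 3D, against 7.0 and 5.55 CPM in 2D and 4.58 CPM in the left-out library (-0.76 ± 0.25, adjusted p = 0.134). Neither passed in either fit.

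Averaged over the 3 timepoints, 1 member (0.671%) was higher in 3D, where 2.25% of tested genes were, and 1 (0.671%) was lower, where 2.88% were. These were ZNF675 (0.87 ± 0.23, adjusted p = 0.0413) and ZNF772 (-0.66 ± 0.18, adjusted p = 0.0463). ZNF772 had 1.36, 1.82 and 2.01 CPM in 3D and 2.01, 2.58 and 1.14 CPM in 2D at timepoint 1, 1.09, 1.70 and 1.03 CPM in 3D and 2.32, 2.51 and 2.82 CPM in 2D at timepoint 2, and 1.03, 1.51 and 1.63 CPM in 3D and 2.10 and 2.79 CPM in 2D at timepoint 3. Its groups overlapped at timepoint 1 and were apart at timepoints 2 and 3, though the left-out 2D library of timepoint 3 held 1.27 CPM, inside the 3D range. Leaving out 1 library ended the call in 12 of 17 fits for ZNF675 and in 13 of 17 for ZNF772, and neither passed with all 18 libraries. With the library number as a term, 10 members were lower, where 9.15% of tested genes were, and 1 was higher, where 9.59% were. The 10 were ZNF211, ZNF266, ZNF317, ZNF419, ZNF554, ZNF574, ZNF587, ZNF772, ZNF784 and ZNF8.

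Whether the change over time differed between the cultures was tested directly, and 0 members passed in any of the 3 interactions in either fit. For timepoint 2 against timepoint 1, 0.0% of tested genes passed, and with the library number as a term 0.775% were more positive in 3D and 0.532% more negative. For timepoint 3 against timepoint 2 the share was 0.0% in both fits. For timepoint 3 against timepoint 1 it was 0.00538% more positive and 0.177% more negative, and 0.538% and 1.02% with the library number as a term. At an unadjusted p under 0.05, 4 members were more positive and 5 more negative for timepoints 2 and 1, 7 and 2 for timepoints 3 and 2, and 8 and 5 for timepoints 3 and 1. DESeq2 called 0 in each. ZNF85 had the smallest p for timepoints 2 and 1, with a difference of 1.00 ± 0.31 between its change of 0.22 in 3D and -0.78 in 2D (adjusted p = 0.525). ZNF527 had the smallest p for timepoints 3 and 1 (1.39 ± 0.43, adjusted p = 0.358), and ZNF260 for timepoints 3 and 2 (1.35 ± 0.46, adjusted p = 0.816).

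Along chromosome 19 the ZNF genes fall into clusters, taken here as runs with no gap over 1 Mb, of which 7 hold at least 5 tested members. They are lettered A to G from the short-arm end. Cluster A spans 7.1 to 9.8 Mb (11 members), B 11.5 to 12.6 Mb (8), C 19.7 to 24.1 Mb (10), D 36.2 to 37.8 Mb (18), E 43.5 to 45.1 Mb (16), F 51.6 to 53.6 Mb (29) and G 55.5 to 58.5 Mb (42). In 3D timepoint 2 against timepoint 1 the medians of all 7 were below 0, from -0.48 in C to -0.20 in D. With the library number as a term and offsets for length and GC content they ran from -0.40 in A to -0.04 in D, with C at -0.17. Within a library number, cluster D differed by 0.209 in number 1, by -0.269 in number 2 and by -0.099 in number 3. Cluster A had 5 of its 11 members lower and 0 higher (ZNF121, ZNF266, ZNF317, ZNF426 and ZNF558), F had 5 of 29 lower and G 4 of 42, C and E had 1 lower each, and B and D had 0, where 7.76% of tested genes were lower. Of the 3 higher members, 2 lie in E and 1 in D.

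In the difference between cultures at timepoint 3 the cluster medians lay on both sides of 0. The median log2 fold change of 3D over 2D was 0.56 in cluster C, with 10 of 10 members above 0, and -0.35 in cluster G, with 35 of 42 below 0. It was 0.31 in D and 0.25 in F. With the library number as a term and offsets for length and GC content, D and F changed sign, to -0.01 and -0.04. The median was 0.08 in E, 0.05 in B and -0.09 in A, and these changed sign under an alternative too. They moved to -0.06 in E and 0.03 in A with that term and the offsets, and to -0.04 in B with the term alone. At timepoint 1 the 7 medians lay between -0.08 and 0.09. Cluster C holds the primate-expanded genes of the pericentromeric region, ZNF91 among them, a repressor of SVA and L1 elements. ZNF91 had 1.75, 1.73 and 1.30 CPM in 3D timepoint 3 libraries, against 1.17 and 1.52 CPM in 2D timepoint 3 libraries, and 2.40 CPM in the left-out library, with overlap. The same 2D libraries set against 2D timepoint 1 gave a median of -0.88 in C, with 10 of 10 members below 0, -0.70 in F and 0.07 in G. With all 18 libraries these were -0.63 in C, -0.45 in F and 0.02 in G, and with the library number as a term and offsets for length and GC content -0.58 in C, -0.51 in F and 0.03 in G. Within a library number, cluster C differed between 2D timepoint 3 and timepoint 1 by -0.005 in number 1, whose timepoint 3 library is the one left out, by -1.041 in number 2 and by -0.742 in number 3. In 3D over the same interval the median was -0.30 in C, -0.36 in F and -0.20 in G.

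**Figure D4:**
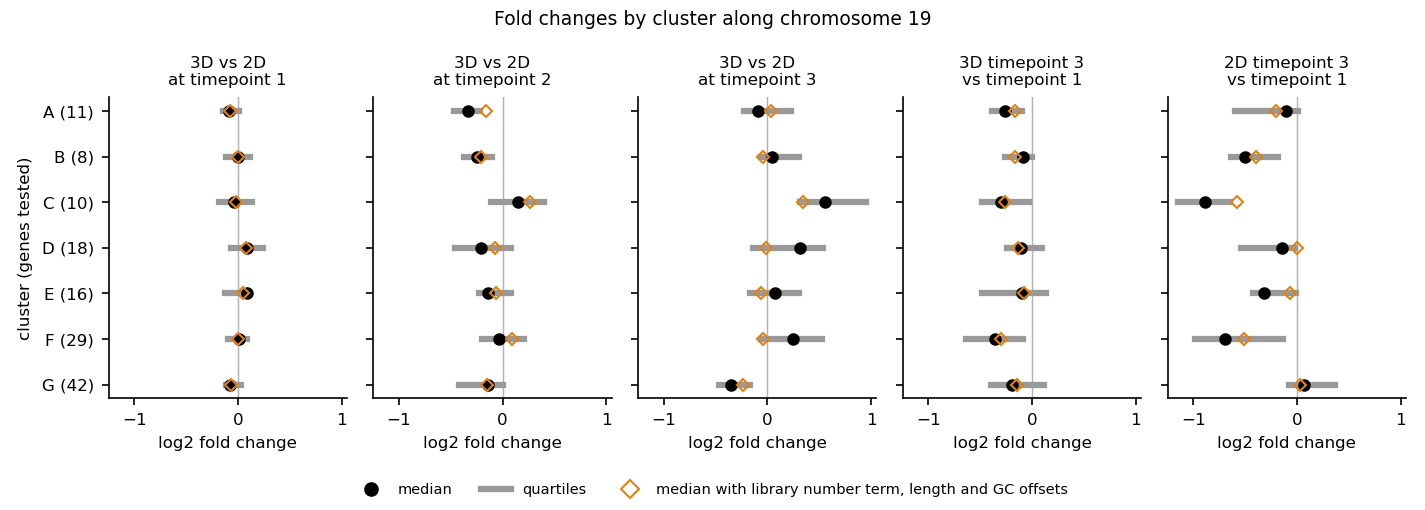
Log2 fold changes (x axis) of the zinc finger genes by cluster along chromosome 19 (y axis, number of genes tested in brackets) in 5 comparisons. Black dots are medians, grey bars quartiles, and open diamonds medians from a fit with a term for library number and offsets for transcript length and GC content; for 3D against 2D at timepoint 3 the median of cluster C is 0.56 and that of cluster G -0.35, and the diamonds lie at 0.34 and -0.23.

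The cluster medians moved with base composition and with the left-out library. The median GC content of the longest transcript was 37.1% in cluster C, 39.3% in D, 41.5% in F and 47.6% in G, against 42.8% over all members, 48.9% over tested genes and 60.2% over other chromosome 19 genes. Over the 149 members the log2 fold change at timepoint 3 had a rank correlation of -0.63 with GC content, and over 18398 tested genes it was -0.45. At timepoint 2 these were 0.00 and 0.06. For 2D timepoint 3 against timepoint 1 they were 0.56 and 0.36, and for 3D over the same interval 0.07 and -0.06. In the fit with a term for library number and offsets for length and GC content the timepoint 3 medians were 0.34 in C, -0.01 in D, -0.04 in F and -0.23 in G. With all 18 libraries they were 0.41 in C, 0.06 in D, 0.13 in F and -0.27 in G. Paired by library number, cluster C differed between 3D and 2D at timepoint 3 by -0.141 in number 1, whose 2D library is the one left out, by 0.737 in number 2 and by 0.614 in number 3. Cluster G differed by -0.051, -0.334 and -0.345 in these numbers. The parts of base composition and of library number 1 in the cluster medians were not tested further.

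**Figure D5:**
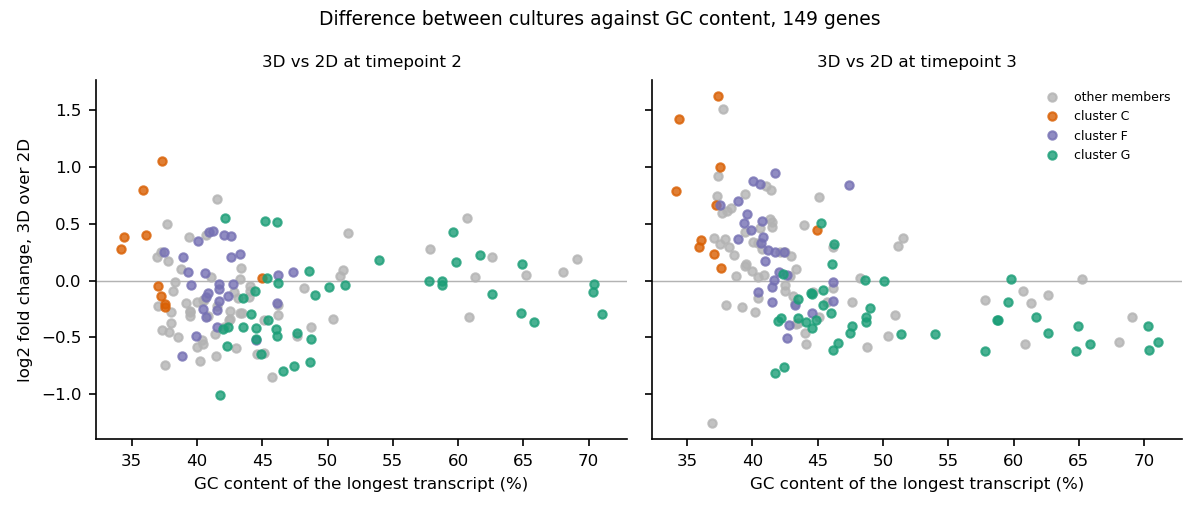
Log2 fold change of 3D over 2D (y axis) against the GC content of the longest transcript in percent (x axis) for the 149 genes at timepoint 2 and timepoint 3, with clusters C, F and G coloured. At timepoint 3 the genes of cluster C, with a median GC content of 37.1%, lie above 0 and most of cluster G, with 47.6%, lies below it, and the rank correlation is -0.63 at timepoint 3 and 0.00 at timepoint 2.

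The promoter letters shown above were set beside the changes over time. Of the 15 members lower at 3D timepoint 2 with a matched promoter, 10 held CCGGAAG, as did 0 of the 3 higher members and 55 of the 118 that did not pass. The median log2 fold change of that comparison was -0.36 in the 65 members with the letters and -0.26 in the 71 without them. At 2D timepoint 2 against timepoint 1 the median was -0.30 with the letters and -0.02 without them, and at 3D timepoint 3 against timepoint 1 it was -0.28 with them and -0.20 without them.

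Among genes that act with the KRAB zinc finger proteins, few passed the test between cultures. Of 20 genes of the TRIM28 corepressor machinery, 0 passed between cultures at any timepoint or on average, with 4 at an unadjusted p under 0.05 at timepoint 3, 3 at timepoint 2 and 0 at timepoint 1, and 0 by DESeq2 at each timepoint (1 lower on average). When the library number was a term, 2 were higher at timepoint 2, where 9.0% of tested genes were. At timepoint 3 that term gave 1 higher, where 4.45% of tested genes were, and 1 lower, where 5.3% were. On average 3 were higher, where 9.59% of tested genes were, and 3 lower, where 9.15% were. SETDB1 was among those lower on average (-0.25, adjusted p = 0.0142, and 0.0619 without that term). SETDB1 averaged 46.2 ± 2.58 CPM in 3D timepoint 3 libraries (SD, n = 3) and 58.5 ± 0.114 CPM in 2D timepoint 3 libraries (SD, n = 2), a log2 fold change of -0.34 ± 0.14 that did not pass (adjusted p = 0.199, and 0.0891 with the library number). Over time in 3D, 1 rose at timepoint 2, where 7.31% of tested genes did, and 1 fell, where 7.76% did. At 3D timepoint 3 against timepoint 1, 3 rose, where 4.07% of tested genes did. MORC2, a chromatin compactor that acts with the HUSH complex and is named here after its values were seen, averaged 15.5 ± 1.84 CPM at 3D timepoint 2 and 7.31 ± 2.03 CPM at 3D timepoint 1 (SD, n = 3 each; 1.08 ± 0.24, adjusted p = 0.00785). In 2D it averaged 19.4 ± 1.26 CPM at timepoint 2 and 7.97 ± 2.00 CPM at timepoint 1 (SD, n = 3 each; 1.28 ± 0.24, adjusted p = 0.00449). The 3 HUSH genes TASOR, MPHOSPH8 and PPHLN1 gave 0 calls in every comparison, and 0 by DESeq2. PPHLN1 was higher in 3D at timepoint 3 by 0.52 ± 0.22, which passed with the library number as a term alone (adjusted p = 0.0393, and 0.214 without it). Of 7 zinc finger genes of chromosome 19 with other names, 4 were tested and gave 0 calls. At an unadjusted p under 0.05, 1 was lower at 2D timepoint 2, and DESeq2 called 0. ZFP14, ZFP82 and ZIK1 averaged no more than 0.375 CPM in any group, so the lack of calls says little about them. The remaining gene, ZFP30, averaged 2.16 to 2.88 CPM.

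Of 12 C2H2 factors outside the KRAB family, 4 fell at 3D timepoint 2 against timepoint 1 (KLF6, EGR1, SP1 and ZBTB7A), where 7.76% of tested genes were lower, and 1 rose (MAZ), where 7.31% were higher. At 2D timepoint 2, 2 fell (KLF6 and EGR1), where 3.22% of tested genes were lower. EGR1 and MAZ are named here after their values were seen. KLF6 averaged 37.7 ± 4.55 CPM in 3D timepoint 3 libraries (SD, n = 3) and 73.4 ± 3.06 CPM in 2D timepoint 3 libraries (SD, n = 2; -0.96 ± 0.15, adjusted p = 0.00464). For KLF6, as for SETDB1 and PPHLN1 above, the level in the left-out 2D library is not given. Of 12 genes with short-lived RNAs, 8 were lower at 3D timepoint 2 than at timepoint 1, where 7.76% of tested genes were, and 4 at 2D timepoint 2, where 3.22% were, with a median of -0.75 in 3D, against -0.28 over the zinc finger genes, and of -0.59 in 2D, against -0.10 over the zinc finger genes. At timepoint 3 against timepoint 1, 7 were lower in 3D, where 6.95% of tested genes were, and 1 in 2D, where 2.36% were.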

How the data were processed

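Bulk poly-A RNA of MCF10A cells was sequenced by the authors in 18 libraries. The deposited counts are whole numbers per gene on hg38. STAR 2.7.1a, HOMER, edgeR and limma are named in the submitters' processing notes, with no role or order. The annotation release, the strand setting and the handling of multi-mapping reads are not stated there. The deposited log2 CPM table carries a total for each of its libraries, per the file headers. The authors' deposited comparison tables hold log2 fold changes, p-values and scores (moderated t and log odds), per the file headers. They do not name the direction of the fold change, and the authors' deposited table for timepoint 2, read as 3D over 2D, called 1 member, which was lower.

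The counts of 17 libraries in 6 groups were fitted together by edgeR's quasi-likelihood test (4.0.16, R 4.3.3) with TMM scaling and filterByExpr. P-values were adjusted by Benjamini-Hochberg over 18592 genes, with a threshold of 0.05. SE is the absolute log2 fold change divided by the square root of F. DESeq2 (1.42.0) and limma (3.58.1) were alternatives, beside other scalings, filters, offsets and leaving out each library, and the edgeR test was checked on simulated counts. The labels give 1 date to each library number over all groups, which pairs the libraries. Deviations from the group means correlated by 0.209 on average over 40 pairs of the same number (-0.04 to 0.513). The main fit has no term for the number. Counts of calls with it stand beside the main ones, and values with it are given for some of the genes whose call changes. Transcript length and GC content are those of the longest GENCODE 29 transcript.

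Members named are those called with the smallest p, then, where few were called, those with the smallest p and no overlap between groups. The members, gene lists and clusters were chosen with earlier results of these data known.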

Additional observations from a re-analysis of the deposited data

How the results depend on the processing

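The counts of called members depended on the library number and on other settings. In this section they stand without the share of all tested genes called under each setting. They show how far the counts moved between settings and nothing more. With that number as a block, 8 members were called between cultures at timepoint 2 and 3 at timepoint 3, against 0 and 0 without it, and 11 on average, against 2. Over time in 3D the block gave 35 calls at timepoint 2 and 21 at timepoint 3, against 19 and 12 without it. In 2D the block gave 8 and 13, against 2 and 6.

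Between cultures at timepoint 2, DESeq2 called 7 members, scaling to the header totals 2, no filter 1, a stricter filter 1, the block with all 18 libraries 9, the block with a length offset 6, the block with length and GC offsets 10, and leaving out both number 3 libraries of timepoint 1 called 4. At timepoint 3 the counts were 5 for DESeq2, 1 for header totals, 3 with no filter, 1 for the block with all 18 libraries, 7 and 3 for the block with the length offset and with both offsets, and 1 for the groups compared alone. On average they were 9 for DESeq2, 5 for header totals, 4 for the stricter filter, 0 with all 18 libraries, 9 for the block with all 18, 14 and 9 for the block with offsets, and 0 at a fold of at least 2 or a mean count of at least 200.

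For 3D timepoint 2 against timepoint 1, DESeq2 called 32, the block with all 18 libraries 34, the block with offsets 32 and 39, the groups alone 3, a fold of at least 2 left 1 and a mean count of at least 200 left 12. For 3D timepoint 3 against timepoint 1, no filter gave 6, the block with all 18 libraries 19, counts divided by transcripts 6, the block with offsets 20 and 30, the groups alone 5, the fold minimum 7 and the count minimum 6. For 2D timepoint 2, DESeq2 gave 8, the block with all 18 libraries 8, the block with offsets 12 and 18, and header totals, all 18 libraries, counts divided by transcripts, the groups alone, the fold minimum and the count minimum 1 each. For 2D timepoint 3, DESeq2 gave 14, all 18 libraries 3, the block with all 18 libraries 14, the block with offsets 14 and 12, leaving out both number 3 libraries of timepoint 1 gave 15, and the groups alone 0. A mean count of at least 200 left 65 members.

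Leaving out each library in turn gave 0 to 1 calls between cultures at timepoint 2, 0 to 0 at timepoint 3 and 0 to 5 on average. It gave 4 to 25 and 4 to 13 calls at 3D timepoints 2 and 3 against timepoint 1, and 0 to 2 and 0 to 8 for the same comparisons in 2D.

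Of 3452 values of 108 named results, 3134 kept their direction and side of the threshold, 173 were weaker, 136 were stronger and 9 reversed. Most of the named results had not passed in the main fit, and such a result keeps its side of the threshold by not passing again. All 9 reversed values belong to 2 genes at timepoint 3 between cultures. ZNF507 was at -0.0177 with all 18 libraries and -0.0221 with the block as well. ZNF473 was at -0.000172 by DESeq2, -1.82e-05 by RLE scaling, -0.0271 by upper-quartile scaling, -0.0721 by header totals and -0.0053 under the stricter filter, and lay between -0.0962 and 0.135 when 1 library was left out. Scaling to the header totals moved the median of all tested genes to -0.226 between cultures at timepoint 2 and -0.107 for 3D timepoint 2 against timepoint 1. The alternatives with both offsets and without both number 3 libraries were added after the data were seen. The cause of these changes was not tested, and counting error was not estimated because the counts exceed the header totals.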
